A study of Mus musculus with 2 samples.

Results

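The AP-1 subunits and immediate early genes are described here as they stood on 2 arrays of mouse cells labelled as lymphoma. The set held 10 genes, namely Fos, Fosb, Fosl1, Fosl2, Jun, Junb, Jund, Atf3, Egr1 and Zfp36, out of 18194 genes with a probe set. Its members were taken as every probe set annotated with exactly 1 of these symbols, which gave 14 of the 45101 probe sets. The endothelial co-culture group was 1 array of lymphoma-labelled cells grown with endothelial cells, which line the inside of blood vessels. The serum culture group was 1 array of lymphoma-labelled cells grown in serum-containing medium. The labels used here name no lymphoma line, strain, genotype, culture time or source of the endothelial cells, and do not mention any sorting of the cell types ahead of RNA extraction. They name no medium for the co-culture, and so the groups may differ in medium as well as in endothelial cells. Each group is a single array, which allows no test of their difference and no p-value.

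AP-1 is a transcription factor made of a pair of proteins, usually 1 of the Fos family with 1 of the Jun family, joined through a leucine zipper and set on DNA by a neighbouring basic region. The genes of many of its subunits are immediate early genes: growth factors, serum and stress switch them on within minutes through kinase cascades (ERK, JNK and p38) and factors already present in the cell, without new protein synthesis, and their messages are short-lived. Egr1 is a zinc finger transcription factor of the same early wave, and Zfp36 (tristetraprolin) is an RNA-binding protein of that wave that speeds the decay of messages with AU-rich ends. In lymphoid cells AP-1 subunits act downstream of antigen receptors and growth signals.

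The promoter stretches of Zfp36, Fos and Fosl2 are shown first, as the measured genes whose 250 bases before the annotated start hold a motif searched for here. Zfp36 was the member with the highest log2 difference, Fos is the founding gene of the family, and Fosl2 was the member with the lowest. Sequences are from RefSeq, build GRCm38.p6, 5′ to 3′ on the gene's strand, and capitals mark motif matches. Zfp36 lies on the minus strand at chr7:28379229-28379478, Fos on the plus strand at chr12:85473640-85473889 and Fosl2 on the plus strand at chr5:32136222-32136471.
Zfp36: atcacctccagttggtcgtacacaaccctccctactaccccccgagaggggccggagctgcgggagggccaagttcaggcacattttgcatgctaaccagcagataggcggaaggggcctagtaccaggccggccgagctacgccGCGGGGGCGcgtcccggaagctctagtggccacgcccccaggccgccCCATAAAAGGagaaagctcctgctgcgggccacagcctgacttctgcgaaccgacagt
Fos: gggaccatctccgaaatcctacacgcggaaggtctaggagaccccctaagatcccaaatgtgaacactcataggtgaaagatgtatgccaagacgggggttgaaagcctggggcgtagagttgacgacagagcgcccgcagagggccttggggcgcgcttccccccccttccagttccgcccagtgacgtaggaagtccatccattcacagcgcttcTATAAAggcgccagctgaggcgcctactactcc
Fosl2: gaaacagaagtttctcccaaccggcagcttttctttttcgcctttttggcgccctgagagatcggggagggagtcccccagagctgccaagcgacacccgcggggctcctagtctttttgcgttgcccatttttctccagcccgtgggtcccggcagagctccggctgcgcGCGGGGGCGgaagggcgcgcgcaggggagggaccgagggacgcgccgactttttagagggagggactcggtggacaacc
The Zfp36 stretch held an EGR site (GCGNGGGCG) and a CArG box, the sequence that serum response factor binds. The Fos stretch held a TATA box (TATAAA), and the Fosl2 stretch an EGR site. Both strands were searched, and matches to different motifs did not overlap in these stretches.

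Windows of 300 bases, reaching 50 bases past the start, were at hand for 8 members (Fos, Fosb, Fosl2, Jun, Junb, Jund, Atf3 and Zfp36). An EGR site was found in 3 of the 8, those of Zfp36, Fosb and Fosl2, and in 5.55% of all 32851 windows. The letters of this site are nearly all G and C. These 3 windows were 63.7%, 68.3% and 64.7% G and C in that order, against a median of 52.7% over all windows. Among the other member windows the share ran from 46.7% for Jund to 65.3% for Junb. The part of base composition in the EGR matches was not tested. The CArG box was found in 1 of the 8, that of Zfp36, and in 1.63% of all windows. The letters of a TATA box were found in 2 of the 8, those of Fos and Junb, and in 13.6% of all windows. The match of Fos began 33 bases before the annotated start, but that of Junb began at the start itself (position 1) and lay downstream. The AP-1 site (TGANTCA) and the cyclic AMP response element (TGACGTCA) were found in 0 of the 8, against 7.81% and 1.79% of all windows. A match describes letters in this window and no match says only that these letters are not in it.

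The median intensity was 50.7 on the co-culture array and 36.9 on the serum array, with a trimmed mean of 500.003 on both. Intensities, which are the deposited linear values, were set to a floor of 44.3 (the pooled median) before log2 was taken, and a gene counts as measured if its brightest probe set exceeded that floor on either array. Fold changes against a value under the floor are lower bounds. Between probe sets of 1 gene the log2 differences had a pooled SD of 0.66 below a mean intensity of 200 and 0.59 at 200 or above. This SD is the error given here, and it covers the spread between probe sets of 1 gene on the same 2 arrays. It covers neither error that all probe sets of a gene or array share nor the spread between cultures. The 3′ to 5′ intensity ratio, a sign of RNA length, was lower on the co-culture array for all 3 controls: 2.05 against 3.56 on the serum array for beta-actin, 1.88 against 2.54 for Gapdh and 5.03 against 13.2 for Tfrc. Its part in any result was not tested.

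The lymphoma label had little backing from markers of blood cells, and markers of endothelial cells were as low. Of 12 pan-leukocyte genes 3 were measured, and the intensities of all 12 summed to 389 on the co-culture array and 415 on the serum array. Ptprc, the CD45 antigen of white blood cells, was below the floor at 3.14 and 21.5 in that order. Of 10 analysed B cell genes 4 were measured (sums over all 10 of 385 in co-culture and 378 in serum), with Cd79a and Ms4a1 below the floor on both arrays, and of 8 T cell genes 1 was measured (sums over all 8 of 186 in co-culture and 129 in serum). Of 14 endothelial genes 2 were measured (sums over all 14 of 387 in co-culture and 330 in serum). Pecam1 and Cdh5, the defining endothelial adhesion molecules, were below the floor on both arrays. The brighter Cdh5 probe set lay just under the floor of 44.3 in co-culture, at 44.1, and at 19.6 in serum. Its other probe set had 1.46 in co-culture and 3.41 in serum. Macrophage, fibroblast and epithelial lists had 2 of 8, 5 of 9 and 2 of 9 genes measured, and no gene of any marker list exceeded an intensity of 161. Dim markers past 2-fold went both ways: Blk was at least 2.84-fold and Epcam 2.14-fold higher in co-culture, while Cd53 was 2.17-fold, Ighm at least 2.31-fold and Flt1 at least 2.11-fold lower. No other probe set of Cd53 (2 in all), Ighm (11 in all) or Flt1 (4 in all) was measured. A second measured probe set of Epcam gave at least 0.10 on the log2 scale. Ighm was named after its values were seen, and the part of these markers in the results was not tested. The labels are kept as names of the samples, and since RNA was taken in bulk, fewer cells of a type and less RNA per cell cannot be told apart.

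Of the 10 genes 9 were measured, and in co-culture 2 of them, Zfp36 and Fosl1, were higher by 2-fold or more. The other 7 measured genes (Fos, Fosl2, Jun, Junb, Jund, Atf3 and Egr1) lay within 2-fold, and 0 were lower by that much. Over all 11560 measured genes the same limit called 4.52% higher and 9.97% lower. The shares were 7.72% and 12.0% among genes of a mean intensity below 200, where both Zfp36 and Fosl1 lay, and 3.15% and 9.10% among brighter genes. At a 1.5-fold limit the same 2 members were higher, beside 12.7% of all measured genes, and Fosl2 and Atf3 were lower, beside 21.6%. At a 3-fold limit 0 members were called, beside 1.19% of all measured genes higher and 3.04% lower. The median log2 difference of the 9 measured members was 0.38, against -0.06 over all measured genes, whose quartiles were -0.50 and 0.30. Fosl1 passed the floor on the co-culture array alone, so neither this count nor this median is independent of the filter. Over the 8 members above the floor on both arrays the median was 0.29, and 1 of them, Zfp36, was higher by 2-fold or more and 0 lower. Of all genes above the floor on both arrays 3.83% were higher and 9.92% lower.

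**Figure D1:**
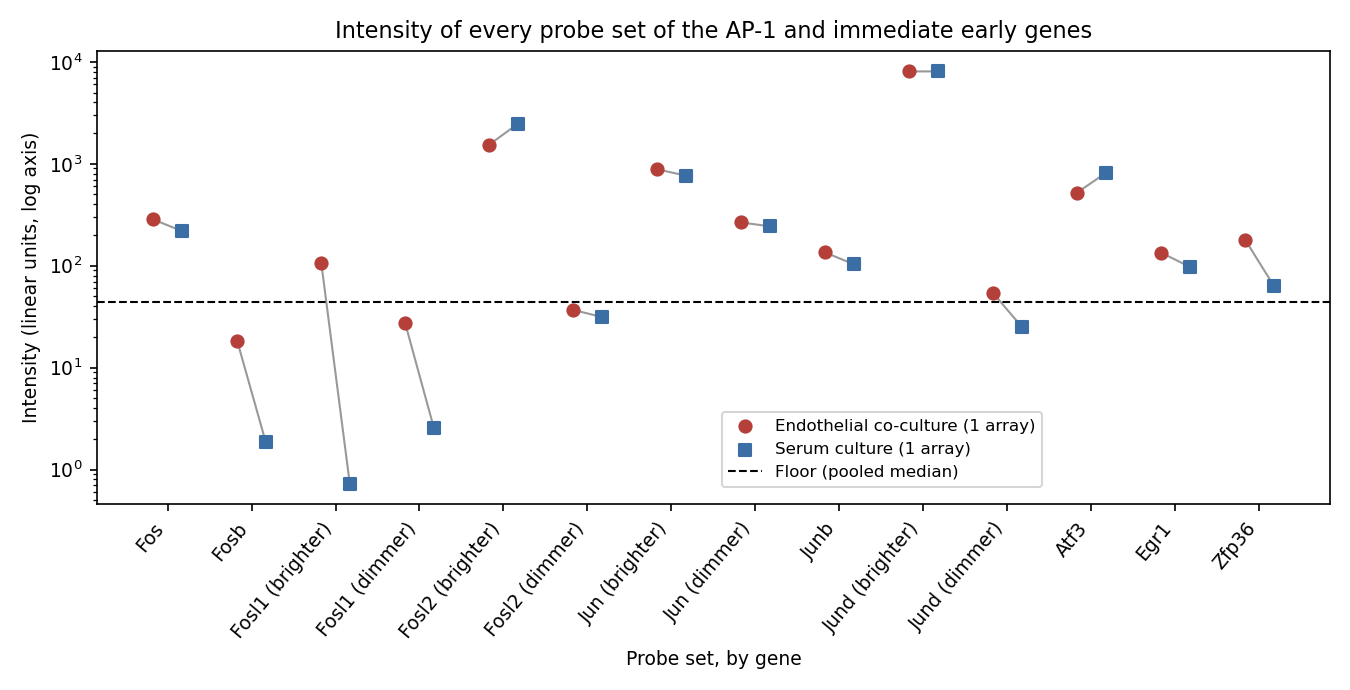
Intensity on a log axis for each of the 14 probe sets of the 10 genes, with 1 circle for the co-culture array, 1 square for the serum array and a dashed line at the floor of 44.3. Zfp36 and the brighter Fosl1 probe set lie well apart between the arrays, Fosb lies below the floor on both, and the bright Jund probe set is level at 8058 and 8071.

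Among the Fos family, which cannot pair with itself and needs a Jun partner to bind DNA, 1 of the 3 measured genes, Fosl1, passed 2-fold. Fos had an intensity of 284 on the co-culture array and 219 on the serum array, a log2 difference of 0.38 that is smaller than the probe set SD of 0.59. Of all measured genes 21.05% had a difference as high as that of Fos.

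Fosl1 (Fra-1), a subunit known from growing and invading cells, had 107 on the co-culture array and 0.726 on the serum array by its brighter probe set. The serum value was below the floor and below the brightest unspiked bacterial control of that array (21.6), so the co-culture level of Fosl1 was at least 2.42-fold that in serum, a log2 difference of at least 1.28 or 1.93 SDs. Its other probe set had 27.2 in co-culture and 2.58 in serum, both under the floor, and gives no fold. The size for Fosl1 is set by the floor, and low values in general stood higher on the co-culture array. There 52.7% of probe sets lay above the floor, against 47.3% on the serum array, and 1075 genes were above it on the co-culture array alone, against 589 on the serum array alone.

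Fosl2 (Fra-2) had 1541 on the co-culture array and 2465 on the serum array, a log2 difference of -0.68. It was the lowest difference among the members, 1.16 SDs in size, and 18.1% of all measured genes had a difference as low. Its second probe set had 36.8 and 31.4 in the same order, both under the floor. Fosb, which is strongly inducible in neurons and immune cells, had 18.3 in co-culture and 1.85 in serum. Both values lay below the brightest unspiked bacterial control of their own array (21.7 in co-culture and 21.6 in serum), and Fosb was not measured.

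The Jun family, which can pair with itself as well as with Fos proteins, lay within 2-fold. Jun had 882 on the co-culture array and 766 on the serum array by its brighter probe set, and 266 and 244 by the other. Both differences were small, at 0.20 and 0.12 on the log2 scale. Jund, the Jun gene that most cells keep switched on, had 8058 in co-culture and 8071 in serum, a log2 difference of -0.00. A dim second probe set of Jund had 53.7 in co-culture and 25.2 in serum, which is at least 1.21-fold. Junb, a Jun relative that often restrains cell division, had 135 in co-culture and 103 in serum, a log2 difference of 0.38 against an SD of 0.66.

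Atf3, a stress-inducible basic leucine zipper factor that pairs with Jun proteins, had 522 on the co-culture array and 812 on the serum array. Its log2 difference was -0.64, or 1.09 SDs, and 19.8% of all measured genes had a difference as low. Apart from Fosl2, Atf3 and Jund (-0.00) no measured member had a difference below 0.

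Of the 2 members that are not AP-1 subunits, Egr1 lay within 2-fold and Zfp36 did not. Egr1 had 134 in co-culture and 97.4 in serum, a log2 difference of 0.46 that is smaller than its SD of 0.66. Zfp36 had 179.7 in co-culture and 63.7 in serum, both above the floor, and was 2.82-fold higher. Its log2 difference of 1.496 was the highest among the members, 2.26 SDs in size. Of all measured genes 1.49% had a difference as high, and 2.45% of those below an intensity of 200. This rests on 1 probe set, whose identifier marks a sequence shared by several transcripts, and no second one of Zfp36 was there to compare.

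**Figure D2:**
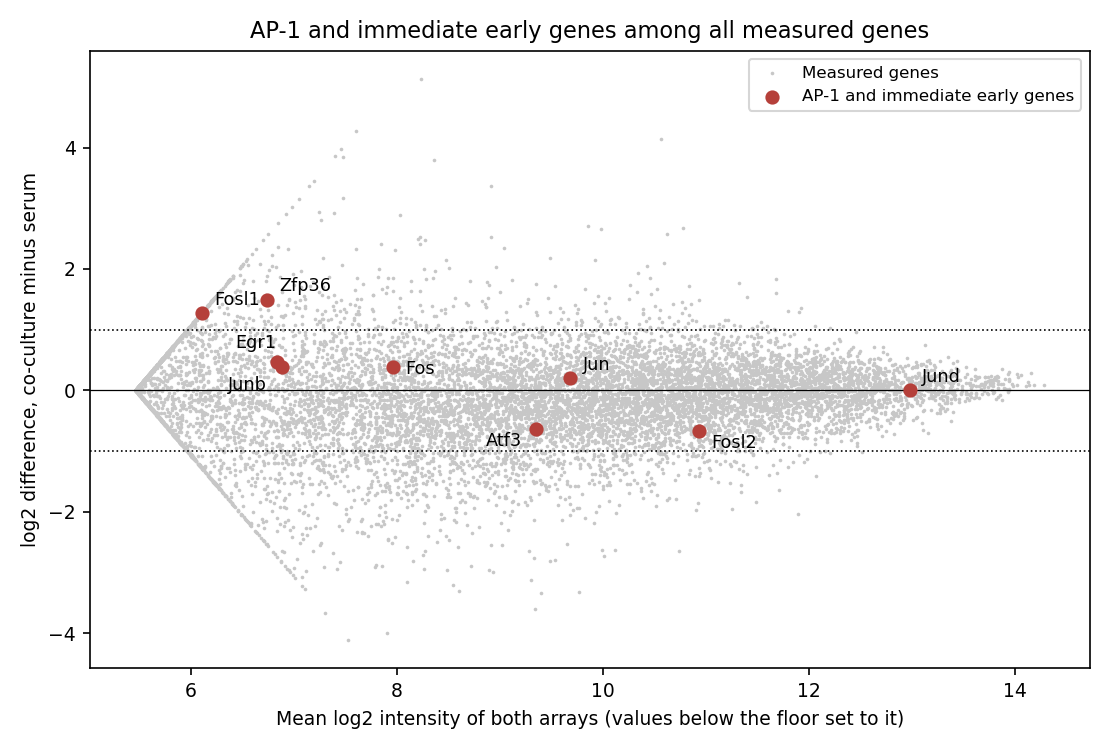
log2 difference, co-culture minus serum, against the mean log2 intensity of both arrays for the 11560 measured genes (grey) and the 9 measured members (red), with dotted lines at 2-fold. Zfp36 and Fosl1 lie above the upper line at the dim end, where grey points spread widely, and Fosl1 lies on the edge that the floor draws.

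Other immediate early genes, a longer list, ran from -1.51 to 2.67 on the log2 scale, against -0.68 to 1.496 in the members. Of 31 such genes 26 were measured, and 5 (19.2%) were higher in co-culture by 2-fold or more and 2 (7.69%) lower. The median log2 difference of the 26 was 0.16, and of all measured genes 4.52% were higher and 9.97% lower. Gadd45b, a stress-induced regulator of p38 and JNK signalling, had 4419 on the co-culture array and 694 on the serum array, 6.37-fold higher, and its other 2 measured probe sets gave log2 differences of 2.26 and 2.59. Ptgs2, the inducible cyclooxygenase of prostaglandin synthesis, had 1156 in co-culture and 201 in serum, 5.74-fold higher, with 1.38 or more on the log2 scale by a second probe set. Dusp2, a nuclear phosphatase that switches ERK off, had 439 in co-culture and 141 in serum, 3.10-fold higher. The other 2 higher genes were Csrnp1 and Ier3, and the 2 lower genes were Nr4a2 and Trib1, of which Csrnp1, Nr4a2 and Trib1 were named after their values were seen.

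ERK feedback inhibitors and readouts, genes that ERK signalling switches on and most of which dampen it, had a median of 0.83, or 0.81 over the 7 above the floor on both arrays. Of 11 measured genes 3 (27.3%) were higher by 2-fold or more and 0 lower, beside 4.52% and 9.97% of all measured genes. A difference above 0 was found in 10 of the 11, and in 5305 of all 11560 measured genes. Spred2, an inhibitor of Raf activation, had 673 on the co-culture array and 47.03 on the serum array, 14.3-fold higher. A second measured probe set gave 2.10 on the log2 scale. Both serum values (47.03 and 54.2) lay near the floor of 44.3, so the size of these differences is uncertain. Etv5, an ETS factor induced by growth factor signals, had 131 in co-culture and 28.1 in serum, at least 2.97-fold higher. Spry2, another inhibitor of the Ras to ERK path, had 562 in co-culture and 222 in serum, 2.53-fold higher. Of the 11, 3, Etv5 among them, passed the floor on the co-culture array alone, so their differences could only be above 0. Etv4, 1 of the 11, passed it on the serum array alone and was at least 1.90-fold lower. It was named after its values were seen. The counts of 3 higher, 0 lower and 10 above 0 are thus not independent of the filter. With the floor at percentile 25 the list had 5 genes higher and 1 lower, beside 12.6% and 9.90% of all genes measured in that setting.

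The kinases and factors upstream of the immediate early genes mostly lay within 2-fold, as did 9885 of all 11560 measured genes. Of all measured genes 4.52% were higher and 9.97% lower. In the ERK cascade with serum response factor, 13 of 21 listed genes were analysed here, all 13 were measured, and 1 was higher and 0 lower (median 0.33). Elk3, an ETS partner of serum response factor, had 167 in co-culture and 49.3 in serum, 3.40-fold higher, with at least 0.48 and 0.62 on the log2 scale by its other measured probe sets. In the JNK and p38 cascades 0 of 15 measured genes were higher and 2 (13.3%) were lower (median -0.10). Map2k6, a kinase that activates p38, had 141 in co-culture and 797 in serum, 5.66-fold lower. Map3k4, a kinase that Gadd45 proteins bind and activate, had 370 in co-culture and 1631 in serum, 4.41-fold lower. Its other probe sets ran from -1.55 to 0.47 on the log2 scale, and the identifiers of all its probe sets, and that of the measured one of Map2k6, mark shared sequence.

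**Figure D3:**
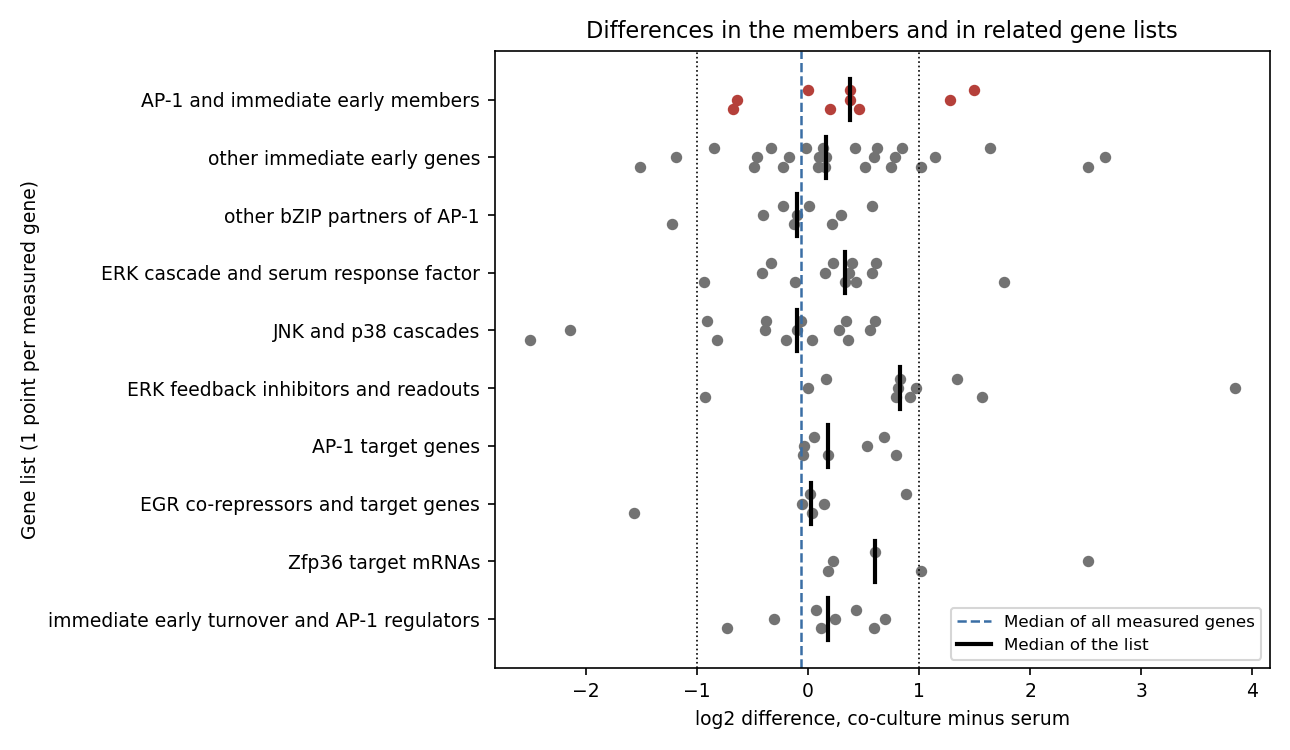
log2 difference, co-culture minus serum, of each measured gene in the members and in the 9 related lists, with a black bar at each list's median, dotted lines at 2-fold and a dashed line at the median of all measured genes (-0.06). The bar of the ERK feedback list stands at 0.83, that of the Zfp36 targets at 0.60 (a lower bound) and that of the members at 0.38.

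Of 9 measured basic leucine zipper partners of AP-1 outside the members 0 were higher by 2-fold or more and 1 (11.1%) was lower. Their median was -0.10, and of all measured genes 4.52% were higher and 9.97% lower. Jdp2, a repressor that pairs with Jun proteins, had 315 on the co-culture array and 732 on the serum array, 2.33-fold lower, by a probe set whose identifier marks shared sequence. Among regulators of AP-1 protein and early message turnover 0 of 8 measured genes passed 2-fold in either direction (median 0.18). Dusp16, a phosphatase of JNK, was at -0.73 and Senp1, a SUMO protease, at 0.69.

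Genes that AP-1, EGR factors and Zfp36 act on were mostly dim or within 2-fold. Of all 11560 measured genes 9885 lay within 2-fold, 4.52% were higher and 9.97% lower. Of 13 analysed AP-1 target genes 7 were measured and 0 passed 2-fold (median 0.18). This 0 depends on the floor, since 3 of the 7 passed it on the co-culture array alone, and 4 genes were higher with the floor at percentile 25 and 2 with a pseudocount of 16. The highest 2 were Plaur, the urokinase receptor, with 232 in co-culture and 134 in serum (0.79 on the log2 scale), and the growth factor Hbegf, with 364 in co-culture and 227 in serum (0.68). Of 6 EGR co-repressors and targets 1 was lower and 0 higher (median 0.02). It was Pdgfa, a growth factor chain, with 812 in co-culture and 2395 in serum, 2.95-fold lower and -0.99 on the log2 scale by its other probe set. Of 11 messages that Zfp36 protein is known to destabilise 5 were measured, and 2 of the 5 were higher by 2-fold or more and 0 lower. These were Ptgs2, given above, and Ier3, an early gene of survival signalling, which had 1850.05 in co-culture and 916 in serum, 2.02-fold higher. Both are also counted among the other immediate early genes. Of the 5, 2 passed the floor on the co-culture array alone. Neither the count of 2 nor the median of 0.60, itself a lower bound, is thus independent of the filter. Over the 3 messages above the floor on both arrays the median was 1.01. The probe set of Ier3 also marks shared sequence, and its log2 difference was 0.82 after scaling to the hybridisation spikes, so that 1 of the messages was then called.

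The differences of the members kept within narrow ranges under other settings, Fosl1 apart. This says little on their reliability, since many settings leave a gene bright on both arrays unchanged or shift all such genes alike. The higher floors do not measure the dimmer members at all. Zfp36 ran from 1.30 to 1.56 on the log2 scale in the 6 settings that measured it. Fosl1 ran from 1.08 to 3.06 in 7 settings, the highest with the floor at percentile 25 of all values. Fosl2 ran from -0.88 to -0.62 and Atf3 from -0.84 to -0.56 in 9 settings. Fos, Jun, Junb and Egr1 were above 0 in each setting that measured them, with a lowest value of 0.01 for Jun after scaling to the bacterial hybridisation spikes, while Jund was above 0 in 2 settings and below it in 7.

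**Figure D4:**
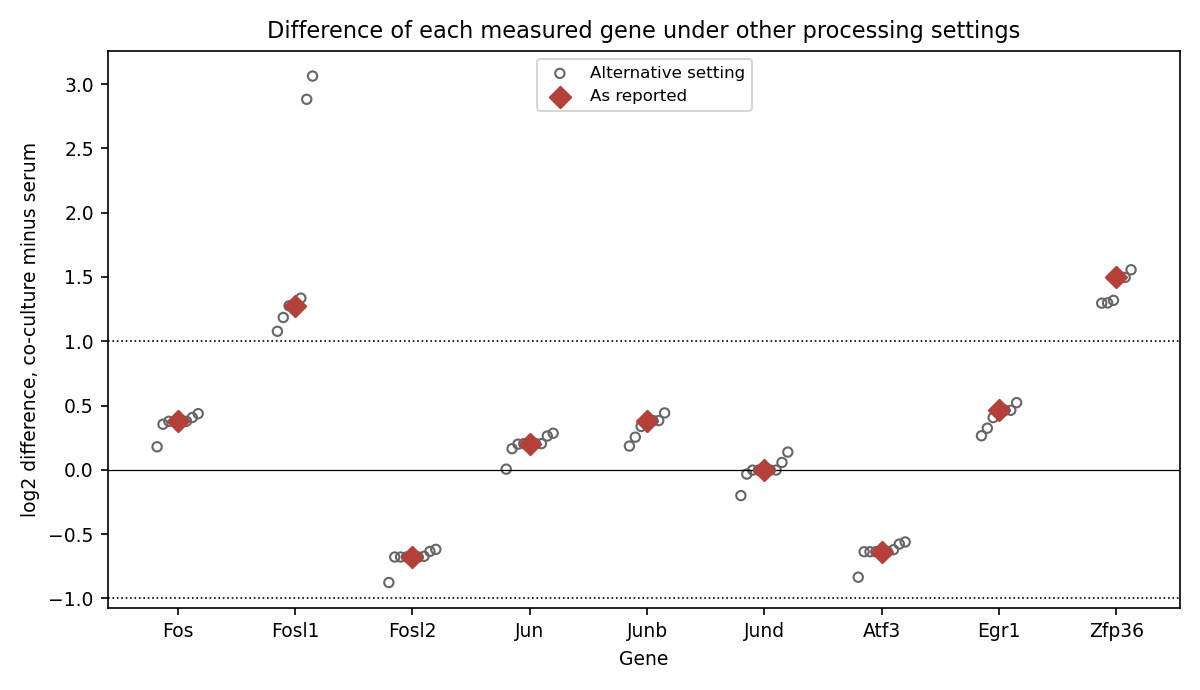
log2 difference, co-culture minus serum, of the 9 measured genes as reported (diamonds) and under the alternative settings that measured them (open circles), with dotted lines at 2-fold. Open circles stay close to the diamond for 8 genes, and for Fosl1 they reach 3.06.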

How the data were processed

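Total RNA was column-purified, copied into cDNA from a T7 poly(T) primer and transcribed into biotin-labelled cRNA for 1-colour arrays, per the labels' protocols. The deposited values are linear intensities per probe set. The array software, background correction and scaling are unknown here, since no label or header states them, and the number of arrays limits the precision. A mean of 500.003 on both arrays after trimming 2% at each end is what common scaling would leave.

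Probe sets were named by the platform annotation, and their symbols were brought up to date in RefSeq (GRCm38.p6) by gene number. Of 45101 probe sets 34958 had 1 symbol, 932 several and 9211 none, and no gene was named from several. Intensities were floored at 44.3 and put on the log2 scale, and a gene's value is that of its brightest probe set. The call was a log2 difference of 1 or more in size. Error is the pooled SD among measured probe sets of 1 gene (5480 genes). Steps were tested on simulated data.

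Members and lists were chosen with earlier results of these data known. All 10 members are named, and from each other pathway list up to 3 genes with the largest difference past 2-fold, or 2 where none passed. Marker lists give the 2 brightest and the first 2 genes, of which only some are printed. The alternatives were 4 other treatments of low values, 3 scalings, 2 choices of probe set and 2 fold limits. A planned comparison of protein sequences was not made. Python 3.11.15, numpy 2.4.6, pandas 2.3.3 and matplotlib 3.10.9 were used.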

Additional observations from a re-analysis of the deposited data

How the results depend on the processing

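Each of 11 settings other than the reported one was applied to the members, and the counts depended mainly on the floor and the fold limit. The count of members at least 2-fold higher, 2 as reported, was 0 with the floor at percentile 75 of all values (389), 0 with a floor of 200 and 0 at a 3-fold limit, and it was 1 without probe sets of shared sequence. Higher floors leave fewer members measured (4 and 5), with neither Zfp36 nor Fosl1 among them, and the probe set of Zfp36 is the one removed as shared. The count of members lower, 0 as reported, was 2 at a 1.5-fold limit, and these were Fosl2 and Atf3. At that limit 12.7% of all measured genes were higher and 21.6% lower. The median of the members, 0.38 as reported, was -0.32 over the 4 left by the floor at percentile 75. Elsewhere it lay between -0.00 and 0.44. With all genes, the share of higher among called genes was 31.2% as reported, 55.9% with the floor at percentile 25, 41.5% with a pseudocount of 16 and 16.97% after scaling to the hybridisation spikes, which moved the median of all measured genes from -0.06 to -0.26. For the other lists and the 16 genes named from them by rule, settings chosen after the data were seen gave none of those 16 past 2-fold the opposite sign. This says little, since a change of floor or pseudocount cannot turn the sign of a probe set's difference. Scaling to the spikes shifts bright genes by only 0.20, and genes with shared-sequence probe sets alone drop out when those are left out. Csrnp1, Nr4a2, Trib1 and Etv4 were not followed one by one. Elk3 was at 0.96 and Map3k4 at -1.17 as means over probe sets, Spry2 at 0.53, Dusp2 at 0.17 and Spred2 at 0.79 with the floor at percentile 75, and the ERK feedback list then had 0 genes higher, against 5 higher and 1 lower with the floor at percentile 25 and with a pseudocount of 16. The AP-1 targets had 4 and 2 genes higher in those settings, and the Zfp36 targets 5 and 4, beside 12.6% and 7.41% of all measured genes. Scaling to the spikes, or leaving out probe sets of shared sequence, left 1 Zfp36 target higher. Without shared-sequence probe sets the lists of JNK and p38 cascades and of other AP-1 partners each had 0 genes lower. No paired analysis was possible because each group holds 1 array. The depth of signal limits Fosb and the serum value of Fosl1, which lay at the level of unspiked controls.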
